A study of Mus musculus with 6 samples.

Results

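The 34 genes described here encode enzymes of cholesterol synthesis, enzymes of fatty acid synthesis and desaturation, and regulators of both. Of these, 18 genes form the sterol arm, 12 the fatty acid arm and 4 are regulators. All 34 were found by symbol among the 46078 gene identifiers of the count table, and all 34 were among the 12078 genes that averaged at least 1 CPM (counts per 1000000 scaled reads) over the libraries. Those 12078 genes are called the tested genes below.

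Cells build cholesterol from acetyl-CoA through the mevalonate pathway, squalene and lanosterol, and they build long-chain fatty acids from the same acetyl-CoA through malonyl-CoA. Both pathways are driven by the sterol regulatory element binding proteins (SREBPs), which are held in the endoplasmic reticulum by INSIG proteins when sterols are plentiful and move to the nucleus when sterols are scarce. SREBP-2, from Srebf2, is known to favour sterol genes and SREBP-1c, from Srebf1, to favour fatty acid genes. In the lung, alveolar type II cells make the lipids of surfactant with these enzymes.

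RNA was sequenced from monolayers of MLE12, a line of immortalized mouse lung epithelial cells. The 6 groups had 1 library each: cells labelled Lingo1 KO, Lingo2 KO, Lingo3 KO and TROY KO and wild-type parental cells, each collected 24 hours after the monolayer was scratched with a pipet tip, and wild-type parental cells that were not scratched. Lingo1 to Lingo3 encode leucine-rich repeat receptors and TROY is the TNF receptor family member Tnfrsf19. How the knockout lines were made, and whether each is 1 clone, is not given in the sources used here. With 1 library per group, no difference could be held against a replicate, no p-value was computed, and genotype, cell line, culture and library cannot be told apart.

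Each library had between 28109825 and 30776294 reads counted in genes. The share of uniquely aligned reads assigned to no gene was between 4.98% and 6.41% in the 4 libraries labelled as knockouts and between 7.80% and 8.02% in the 2 parental libraries; its part in the results below was not tested. Lingo1 RNA was not lowered in the library labelled Lingo1 KO, at 57.0 CPM against 24.5 CPM in the scratched parental library. It therefore does not bear out that label. Lingo1 also stood at 52.0 CPM in Lingo2 KO, 51.3 CPM in Lingo3 KO and 34.7 CPM in TROY KO, against 27.6 CPM in unscratched parental cells. Lingo2 had no count in any library, Lingo3 had at most 1 count and Tnfrsf19 at most 4, so their RNA checks none of the other 3 labels. Of 10 alveolar type II markers, Sftpb, Sftpc, Abca3, Lpcat1, Nkx2-1, Etv5 and Cebpa averaged over 1 CPM, while Sftpa1 and Lamp3 had at most 3 counts in any library and Sftpd had none. The epithelial markers Cdh1, Krt8 and Epcam were present and Krt18 stayed below 1 CPM. The scratched parental library stood apart in the sum of 4 endothelial markers, at 8.91 CPM against 1.29 CPM in unscratched parental cells. In the libraries labelled as knockouts the sum was between 1.13 and 2.23 CPM. Vwf, Kdr and Cdh5 were highest in scratched parental cells, but Pecam1 had 0.263 CPM there and 0.314 CPM in unscratched parental cells. Counts of members against the unscratched parental library are therefore given as well.

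Folds below are ratios of scaled counts between 2 libraries, with a 95% interval that covers counting error only. A difference counted as past the size rule where it reached 2-fold, up or down, and where the end of its interval closer to 1 was still more than 1.5-fold away from it. The word higher, used of a gene without values, means that it passed this rule. In these bulk libraries, less RNA per cell and fewer cells of a type cannot be told apart.

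In the 4 libraries labelled as knockouts, the summed RNA of each arm was between 1.39 and 1.83 times its scratched parental level, most in the library labelled Lingo3 KO. Every one of the 34 members had a fold above 1 in each of these 4 comparisons, although Srebf2 in Lingo2 KO lay just below 1 when libraries were scaled by their total counts. Members past the size rule were 3 in the library labelled Lingo1 KO, 1 in that labelled Lingo2 KO, 7 in that labelled Lingo3 KO and 3 in that labelled TROY KO, all of them higher. Of all tested genes, 1.95% were higher by the same rule in the library labelled Lingo1 KO, 2.12% in Lingo2 KO, 4.63% in Lingo3 KO and 1.06% in TROY KO. The 7 members are Hmgcs1 and Mvd of the sterol arm and Acss2, Acacb, Elovl6, Scd1 and Scd2 of the fatty acid arm.

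Hmgcs1 encodes cytosolic HMG-CoA synthase, which makes the first committed precursor of mevalonate. It lies on chromosome 13 (GRCm38, 119690379 to 119708260, plus strand). Its level was 327 CPM in the library labelled Lingo1 KO, 319 CPM in Lingo2 KO, 428 CPM in Lingo3 KO and 345 CPM in TROY KO, against 185 CPM in scratched and 151 CPM in unscratched parental cells. The 4 libraries labelled as knockouts thus lay above both parental libraries. The fold over the scratched parental library was 2.32 (2.25 to 2.39) in Lingo3 KO and did not reach 2 in the other 3, at 1.77 (1.71 to 1.83) in Lingo1 KO, 1.73 (1.67 to 1.79) in Lingo2 KO and 1.87 (1.81 to 1.93) in TROY KO.

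Scd1 encodes a stearoyl-CoA desaturase, which puts the double bond into saturated fatty acids. It lies on chromosome 19 (44394455 to 44407879, minus strand). It had 693 CPM in the library labelled Lingo1 KO, 623 CPM in Lingo2 KO, 892 CPM in Lingo3 KO and 736 CPM in TROY KO, against 347 CPM in scratched and 324 CPM in unscratched parental cells. The fold over the scratched parental library was 2.57 (2.52 to 2.63) in Lingo3 KO and 2.12 (2.07 to 2.17) in TROY KO. It was 2.0 (1.95 to 2.05) in Lingo1 KO, at the edge of the rule, and 1.90 when libraries were scaled by their total counts instead. In Lingo2 KO it was 1.80 (1.75 to 1.84).

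Elovl6 encodes the elongase that lengthens palmitate, and lies on chromosome 3 (129532355 to 129638495, plus strand). Its level was 96.2 CPM in the library labelled Lingo1 KO, 82.2 CPM in Lingo2 KO, 123 CPM in Lingo3 KO and 101 CPM in TROY KO, against 46.9 CPM in scratched and 43.6 CPM in unscratched parental cells. Like Scd1 it passed the rule in 3 libraries, with folds of 2.05 (1.92 to 2.19) in Lingo1 KO, 2.62 (2.46 to 2.78) in Lingo3 KO and 2.16 (2.02 to 2.30) in TROY KO. The Lingo1 KO value was 1.95 with scaling by total counts. In Lingo2 KO the fold was 1.75 (1.64 to 1.87).

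Acss2 encodes the cytosolic and nuclear acetyl-CoA synthetase that turns acetate into acetyl-CoA, and lies on chromosome 2 (155517948 to 155585724, plus strand). Its fold was the largest of all 34 members in each of the 4 comparisons, and it was the only member past the rule in all 4. Its level was 21.3 CPM in the library labelled Lingo1 KO, 21.9 CPM in Lingo2 KO, 40.5 CPM in Lingo3 KO and 16.8 CPM in TROY KO, against 7.17 CPM in scratched and 7.89 CPM in unscratched parental cells. The folds over the scratched parental library were 2.98 (2.54 to 3.49) in Lingo1 KO, 3.05 (2.61 to 3.58) in Lingo2 KO, 5.66 (4.89 to 6.56) in Lingo3 KO and 2.34 (1.99 to 2.76) in TROY KO.

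Acacb encodes acetyl-CoA carboxylase 2, the mitochondrial form whose malonyl-CoA restrains fatty acid oxidation. It lies on chromosome 5 (114146535 to 114250761, plus strand) and was the scarcest member, with between 29 and 114 counts per library. It stood at 2.60 CPM in the library labelled Lingo1 KO, 2.41 CPM in Lingo2 KO, 3.74 CPM in Lingo3 KO and 1.40 CPM in TROY KO, against 1.28 CPM in scratched and 1.01 CPM in unscratched parental cells. Its fold was 2.92 (2.01 to 4.31) in Lingo3 KO. In Lingo1 KO it was 2.03 (1.35 to 3.07), an interval too wide at these counts to pass. It did not reach 2 in Lingo2 KO, at 1.88 (1.2 to 2.86), and in TROY KO it was 1.09 (0.687 to 1.73).

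Scd2, the second stearoyl-CoA desaturase, and Mvd, mevalonate diphosphate decarboxylase, passed the rule in the library labelled Lingo3 KO alone, both at its edge. Scd2 had 2356 CPM in Lingo1 KO, 2066 CPM in Lingo2 KO, 2765 CPM in Lingo3 KO and 2608 CPM in TROY KO, against 1372 CPM in scratched and 1320 CPM in unscratched parental cells. Mvd had 68.9 CPM in Lingo1 KO, 65.1 CPM in Lingo2 KO, 84.6 CPM in Lingo3 KO and 63.2 CPM in TROY KO, against 42.0 CPM in scratched and 36.8 CPM in unscratched parental cells. In Lingo3 KO the fold was 2.02 (1.99 to 2.04) for Scd2 and 2.01 (1.88 to 2.16) for Mvd, and both were 1.92 with scaling by total counts. Whether Lingo3 KO differs from the other 3 libraries in these 2 genes is given by the direct ratios further on, none of which passed the rule.

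**Figure D1:**
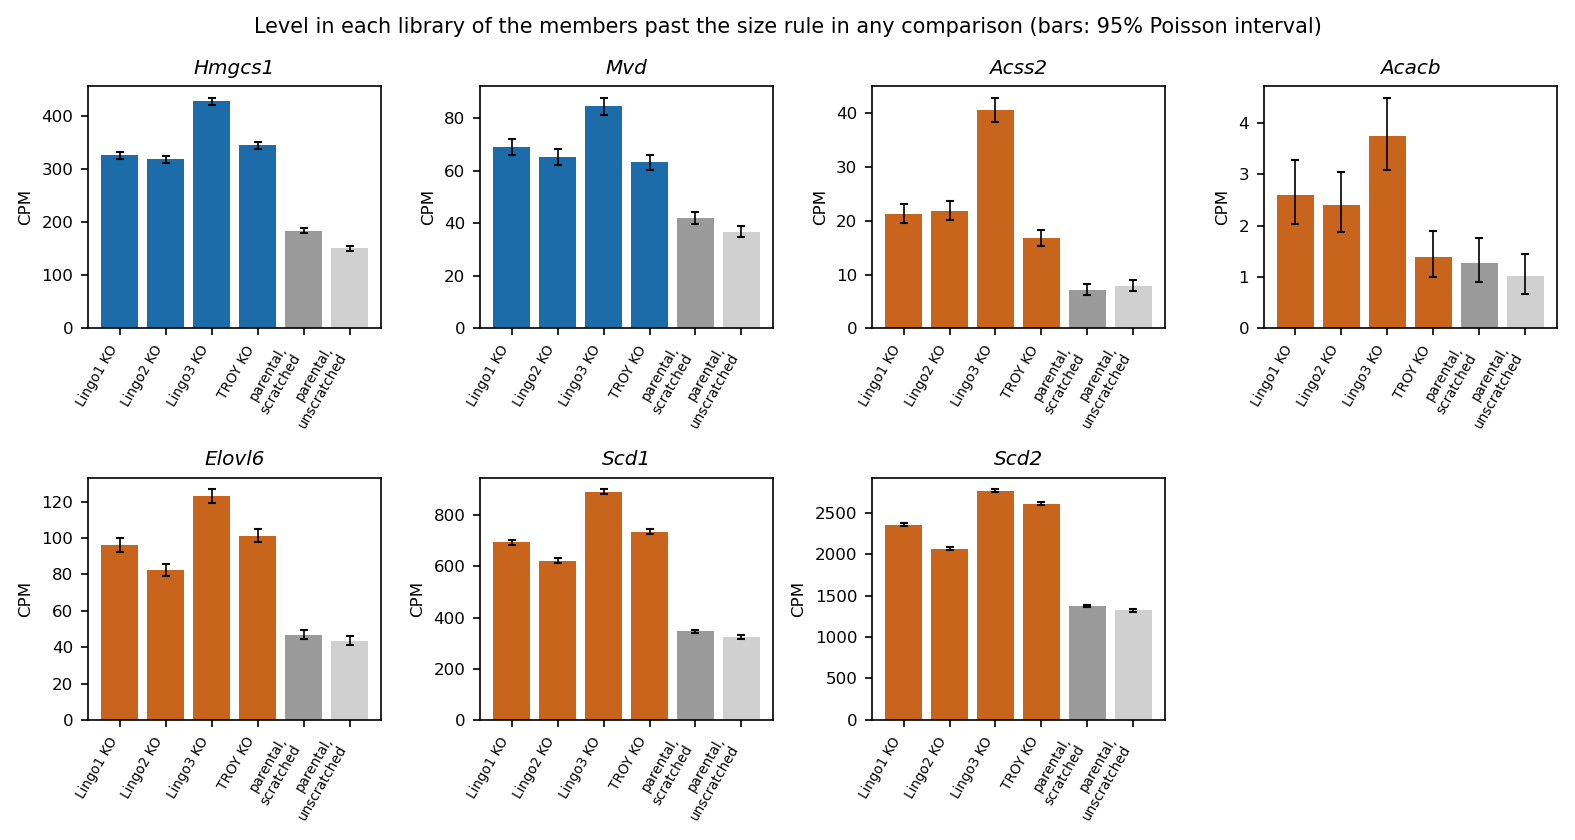
Level in CPM (vertical axis, starting at 0) of the 7 members past the size rule, with 1 bar for each of the 6 libraries and the 95% Poisson interval as the error bar. In 6 panels each of the 4 bars labelled as a knockout stands clear of both parental bars, and in the Acacb panel the TROY KO bar (1.40 CPM) lies beside the scratched parental bar (1.28 CPM).

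Stretches of the promoters are shown for the called members that have a RefSeq promoter window, other than Elovl6, whose window holds none of the motifs searched, and for Ebp, the sterol gene with the smallest fold in 3 of the 4 comparisons. A window runs from 250 bases before to 50 after an annotated start site (RefSeq, GRCm38.p6), and 27 of the 34 members had at least 1, 33 windows in all. Only bases before the start site that no GENCODE exon covers are printed, so that the Acss2 stretch ends 96 bases before its start site. Capitals mark the sterol regulatory element form TCACNCCAC and the CCAAT box that NF-Y binds, on either strand (ATTGG is CCAAT on the other strand). The stretches are chr13:119690154-119690350, plus strand, for Hmgcs1; chr8:122443423-122443572, minus strand, for Mvd; chrX:8193513-8193662, minus strand, for Ebp; chr2:155517798-155517947, plus strand, for Acss2; and chr5:114165359-114165508, plus strand, at a start site inside the gene, for Acacb.
Hmgcs1: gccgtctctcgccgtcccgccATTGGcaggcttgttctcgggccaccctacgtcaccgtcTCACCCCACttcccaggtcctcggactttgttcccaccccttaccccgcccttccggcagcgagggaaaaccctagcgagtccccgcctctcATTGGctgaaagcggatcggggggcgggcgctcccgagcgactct
Mvd: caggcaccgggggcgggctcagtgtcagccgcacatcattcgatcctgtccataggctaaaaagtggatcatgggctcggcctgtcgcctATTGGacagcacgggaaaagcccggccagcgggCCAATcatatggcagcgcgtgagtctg
Ebp: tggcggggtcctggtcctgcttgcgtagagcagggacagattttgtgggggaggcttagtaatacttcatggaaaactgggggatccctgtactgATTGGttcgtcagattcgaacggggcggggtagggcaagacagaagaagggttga
Acss2: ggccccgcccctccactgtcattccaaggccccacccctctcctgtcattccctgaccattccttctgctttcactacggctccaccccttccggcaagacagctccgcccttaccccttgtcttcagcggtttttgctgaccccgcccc
Acacb: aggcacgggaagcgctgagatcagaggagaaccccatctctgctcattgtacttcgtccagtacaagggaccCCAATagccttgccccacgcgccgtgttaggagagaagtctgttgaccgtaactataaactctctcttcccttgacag

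The form TCACNCCAC was found in 1 of the 33 windows, that of Hmgcs1, where it begins 137 bases before the start site, and in 1.24% of the 32851 windows of all genes in the RefSeq table. CCAAT on either strand was found for 14 of 15 sterol genes with a window and for 6 of 9 fatty acid genes. It was in 72.7% of the members' windows and in 37.4% of all windows. The Sp1 box GGGCGG, on either strand, was found for 14 of 15 sterol genes and 4 of 9 fatty acid genes, in 69.7% of the members' windows and 35.7% of all windows. The Acss2 window holds a CCAAT box 73 bases before its start site, outside the printed stretch. Ebp, which differed little between libraries, holds the CCAAT box as Hmgcs1 and Mvd do. These are matches of letters only, and windows differ in base composition.

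Along the sterol arm, the steps from acetyl-CoA to farnesyl diphosphate had folds over the scratched parental library that were smallest for Acat2 and largest for Hmgcs1 in the library labelled Lingo3 KO. Acat2, the thiolase that starts the pathway, had folds of 1.28 in Lingo1 KO, 1.33 in Lingo2 KO, 1.47 in Lingo3 KO and 1.31 in TROY KO. Mevalonate kinase (Mvk) had 1.57 in Lingo1 KO, 1.53 in Lingo2 KO, 1.86 in Lingo3 KO and 1.42 in TROY KO, and phosphomevalonate kinase (Pmvk) had 1.38, 1.34, 1.74 and 1.32 in the same order. Idi1, the isomerase of isopentenyl diphosphate, was 1 of 2 sterol genes with its highest level in TROY KO, with folds of 1.61 in Lingo1 KO, 1.28 in Lingo2 KO, 1.76 in Lingo3 KO and 1.79 in TROY KO. Fdps, farnesyl diphosphate synthase, had 1.66 in Lingo1 KO, 1.64 in Lingo2 KO, 1.98 in Lingo3 KO and 1.67 in TROY KO.

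Squalene and lanosterol steps lay between 1.35 and 1.77. Fdft1, squalene synthase, had folds of 1.49 in the library labelled Lingo1 KO, 1.53 in Lingo2 KO, 1.55 in Lingo3 KO and 1.35 in TROY KO. For Sqle, squalene epoxidase, the folds were 1.51 in Lingo1 KO, 1.48 in Lingo2 KO, 1.77 in Lingo3 KO and 1.6 in TROY KO, and for Lss, lanosterol synthase, they were 1.54, 1.36, 1.77 and 1.51 in the same order. None of these values passed the size rule.

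The steps after lanosterol differed among themselves in the library labelled Lingo3 KO. Nsdhl, the dehydrogenase of sterol demethylation, had a fold of 1.99 (1.88 to 2.12) there, just outside the rule. Dhcr7, which makes cholesterol in the last step, had 1.96, Msmo1, the methyl sterol oxidase, had 1.90, and Cyp51, lanosterol demethylase, had 1.84. Hsd17b7, a sterol ketone reductase, had 1.6. Tm7sf2, a sterol reductase, had 1.22 (1.05 to 1.41), Sc5d, the sterol desaturase, had 1.16 (1.09 to 1.24), and Ebp, the sterol isomerase, had 1.11 (1.05 to 1.18).

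Ebp was also the lowest sterol gene in the library labelled Lingo1 KO, at 1.17, and in that labelled TROY KO, at 1.10. In Lingo2 KO the lowest was Tm7sf2, at 1.17 (1.0 to 1.36), the one sterol gene of the 18 whose interval reached 1 in any of these comparisons. The highest sterol gene was Hmgcs1 in Lingo3 KO and TROY KO. Nsdhl and Hmgcs1 were highest together in the other 2 libraries, within counting error of each other, with Nsdhl at 1.77 (1.67 to 1.89) in Lingo1 KO and 1.73 (1.63 to 1.84) in Lingo2 KO. Ebp had 82.8 CPM in Lingo1 KO, 84.7 CPM in Lingo2 KO, 78.7 CPM in Lingo3 KO and 78.0 CPM in TROY KO, against 70.7 CPM in scratched and 75.5 CPM in unscratched parental cells, a spread much smaller than that of Hmgcs1.

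In the fatty acid arm the genes that supply or carboxylate acetyl-CoA were spread widely. Acly, ATP citrate lyase, which makes cytosolic acetyl-CoA from citrate, had folds of 1.26 in the library labelled Lingo1 KO, 1.16 in Lingo2 KO, 1.5 in Lingo3 KO and 1.33 in TROY KO, against the much larger values of Acss2 given above. Acaca, the cytosolic acetyl-CoA carboxylase, had 1.52 in Lingo1 KO, 1.36 in Lingo2 KO, 1.89 in Lingo3 KO and 1.69 in TROY KO. Fasn, fatty acid synthase, had 1.58 in Lingo1 KO, 1.27 in Lingo2 KO, 1.76 in Lingo3 KO and 1.47 in TROY KO. Me1, the cytosolic malic enzyme that supplies NADPH, had the lowest fold of the arm in Lingo1 KO (1.13), Lingo2 KO (1.11) and Lingo3 KO (1.23), and in TROY KO, where it had 1.2, the lowest was Acacb.

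Among the members, the desaturases and elongases of saturated chains had larger folds than those of polyunsaturated chains. Beside Scd1, Scd2 and Elovl6, described above, Fads1 and Fads2, which desaturate polyunsaturated fatty acids, and Elovl5, which elongates them, lay between 1.17 and 1.46 in the 4 comparisons and none passed the rule. Scd4, a desaturase outside the members, did not follow Scd1 and Scd2, with 2.63 CPM in scratched parental cells. It had 1.44 CPM in the library labelled Lingo1 KO, 1.84 CPM in Lingo2 KO, 1.21 CPM in Lingo3 KO and 2.76 CPM in TROY KO. Fads1 had 458 CPM in the library labelled Lingo1 KO, 435 CPM in Lingo2 KO, 466 CPM in Lingo3 KO and 448 CPM in TROY KO, against 373 CPM in scratched and 390 CPM in unscratched parental cells. Scd1 also moved relative to Scd2. In the authors' RPKM values, the ratio of Scd1 to Scd2 was 0.332 in Lingo1 KO, 0.340 in Lingo2 KO, 0.364 in Lingo3 KO and 0.318 in TROY KO, against 0.285 in scratched and 0.277 in unscratched parental cells.

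None of the 4 regulators passed the size rule. Srebf1 had 217 CPM in the library labelled Lingo1 KO, 185 CPM in Lingo2 KO, 246 CPM in Lingo3 KO and 197 CPM in TROY KO, against 162 CPM in scratched and 185 CPM in unscratched parental cells. Srebf2 had 546 CPM in Lingo1 KO, 490 CPM in Lingo2 KO, 608 CPM in Lingo3 KO and 530 CPM in TROY KO, against 468 CPM in scratched and 517 CPM in unscratched parental cells. Both thus stood lower in scratched than in unscratched parental cells, and Srebf2 in Lingo2 KO lay below the unscratched parental level. Over the scratched parental library, Srebf1 had folds of 1.34 in Lingo1 KO, 1.14 in Lingo2 KO, 1.52 in Lingo3 KO and 1.22 in TROY KO. For Srebf2 the folds were 1.17 in Lingo1 KO, 1.05 in Lingo2 KO, 1.30 in Lingo3 KO and 1.13 in TROY KO, and the Lingo2 KO value turned to just below 1 (log2 -0.003) with scaling by total counts.

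Insig1, whose protein retains the SREBPs and whose gene SREBPs themselves induce, had 413 CPM in the library labelled Lingo1 KO, 407 CPM in Lingo2 KO, 466 CPM in Lingo3 KO and 424 CPM in TROY KO, against 301 CPM in scratched and 264 CPM in unscratched parental cells. Its folds of 1.37 in Lingo1 KO, 1.35 in Lingo2 KO, 1.55 in Lingo3 KO and 1.41 in TROY KO were the largest among the regulators. In Lingo1 KO and Lingo3 KO the folds of Insig1 and Srebf1 lay within counting error of each other. Stard4, a carrier of cholesterol between membranes, had folds of 1.19 in Lingo1 KO, 1.14 in Lingo2 KO, 1.29 in Lingo3 KO and 1.26 in TROY KO.

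**Figure D2:**
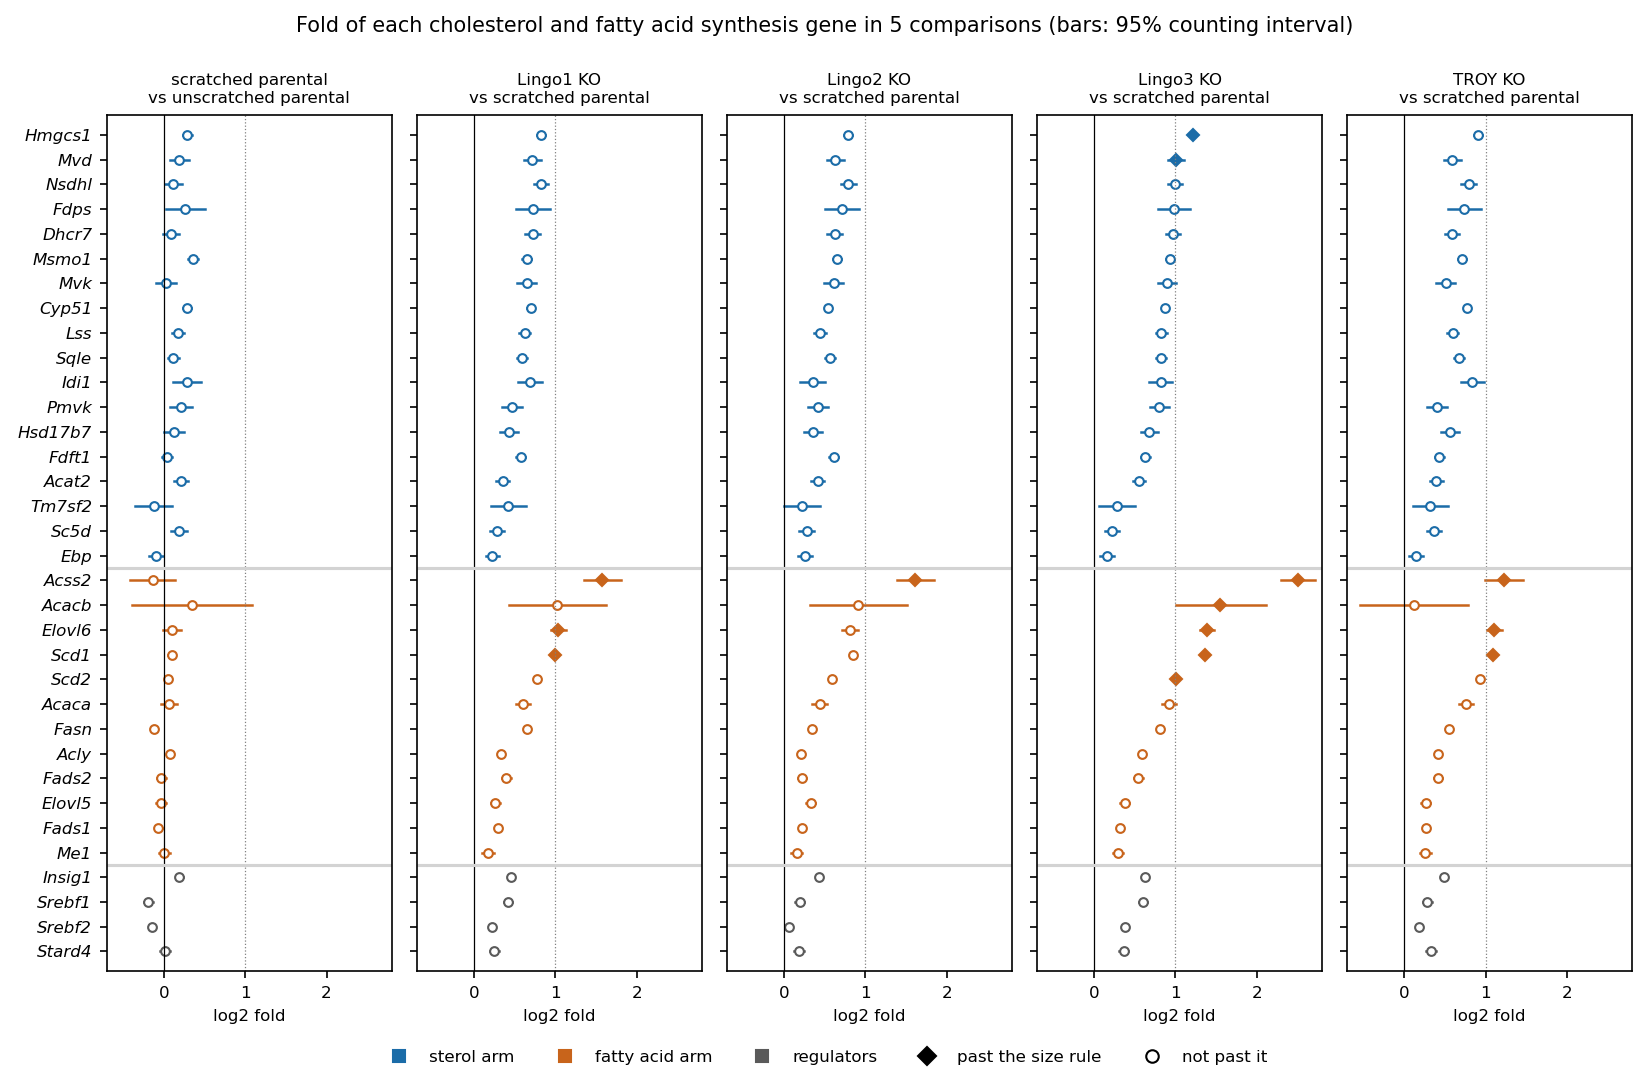
Log2 fold (horizontal axis) of each of the 34 members (rows, ordered within each arm by the Lingo3 KO value), with 95% counting intervals, in 5 panels for the 5 comparisons; filled diamonds passed the size rule and open circles did not. Both arms lie right of 0 in the 4 panels of libraries labelled as knockouts, with 7 diamonds for Lingo3 KO, and lie near 0 in the panel of scratched against unscratched parental cells.

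Folds over the scratched parental library were spread more widely across the fatty acid arm than across the sterol arm. The median log2 fold of the sterol arm was 0.64 in the library labelled Lingo1 KO, 0.55 in Lingo2 KO, 0.82 in Lingo3 KO and 0.59 in TROY KO. That of the fatty acid arm was 0.63 in Lingo1 KO, 0.39 in Lingo2 KO, 0.87 in Lingo3 KO and 0.49 in TROY KO, and that of the regulators was 0.34, 0.19, 0.49 and 0.31 in the same order. The median of all tested genes lay between 0.01 and 0.02 in these comparisons. The SD across genes within an arm was 0.18 for the sterol arm and 0.42 for the fatty acid arm in Lingo1 KO, 0.18 and 0.43 in Lingo2 KO, 0.29 and 0.65 in Lingo3 KO, and 0.20 and 0.39 in TROY KO.

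Counting error was small beside these folds. The interval lay wholly above 1 for 34 of 34 members in the library labelled Lingo1 KO, 33 in Lingo2 KO, 34 in Lingo3 KO and 33 in TROY KO, the exceptions being Tm7sf2 in Lingo2 KO and Acacb in TROY KO. Among all tested genes this share was between 33.2% and 36.3%. A fold of at least 1.5 was reached by 11 sterol and 7 fatty acid genes in Lingo1 KO, 8 and 5 in Lingo2 KO, 14 and 8 in Lingo3 KO, and 10 and 5 in TROY KO. Of all tested genes, 6.86% reached it in Lingo1 KO, 7.03% in Lingo2 KO, 11.5% in Lingo3 KO and 5.10% in TROY KO. These 4 comparisons share the scratched parental library, so an error in that library would enter all of them alike. Against the unscratched parental library, the members past the rule were 6 in Lingo1 KO (1.8% of all tested genes), 4 in Lingo2 KO (1.84%), 15 in Lingo3 KO (4.31%) and 8 in TROY KO (1.24%), all higher.

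**Figure D3:**
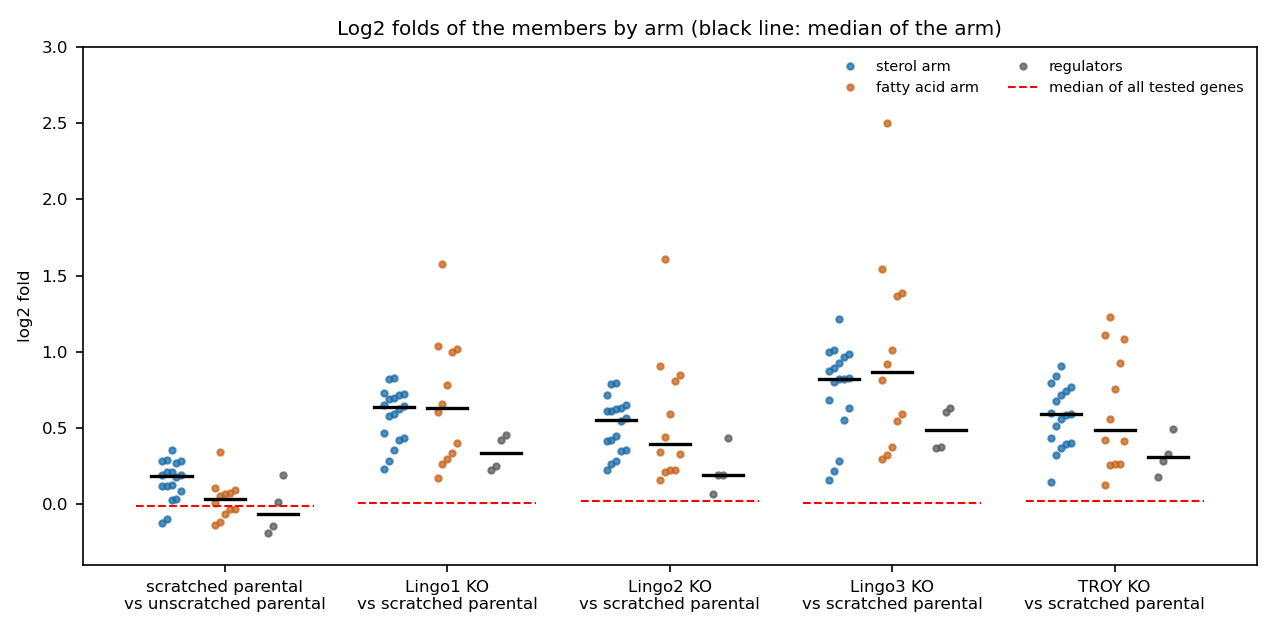
Log2 fold (vertical axis) of each member as a point, by arm, in the 5 comparisons, with the median of each arm as a black line and that of all tested genes as a red dashed line. The sterol and fatty acid medians are 0.64 and 0.63 in the library labelled Lingo1 KO, 0.55 and 0.39 in Lingo2 KO, 0.82 and 0.87 in Lingo3 KO and 0.59 and 0.49 in TROY KO, where the fatty acid points are spread more widely.

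Scratched and unscratched parental cells, with 1 library each, differed by small folds, which lay mostly above 1 in the sterol arm. Scratched against unscratched, 0 of 34 members passed the size rule. Only 0.0662% of all tested genes were higher by it, so that count says little about the members. The sterol arm had a median log2 fold of 0.18, with 16 of 18 genes above 0, the fatty acid arm 0.03, with 7 of 12, the regulators -0.06, and all tested genes -0.01. Intervals lay wholly above 1 for 12 sterol genes and wholly below 1 for 1, Ebp, at 0.936 (0.882 to 0.994). In the fatty acid arm they lay above 1 for 3 genes and below 1 for 2, Fasn at 0.923 (0.904 to 0.941) and Fads1 at 0.955 (0.931 to 0.981). Among all tested genes 13.6% lay wholly above 1.

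Msmo1 had the highest sterol value of this comparison, with 171 CPM in scratched and 133 CPM in unscratched parental cells, a fold of 1.28 (1.23 to 1.34), and Tm7sf2 the lowest, at 0.916 (0.783 to 1.07). Acacb had the highest fatty acid value, at 1.27 (0.763 to 2.12), an interval that takes in 1, and Acss2 the lowest, at 0.909 (0.751 to 1.10). Among the regulators, Insig1 had a fold of 1.14 (1.11 to 1.18), Stard4 1.01 (0.968 to 1.05), Srebf2 0.906 (0.886 to 0.928) and Srebf1 0.876 (0.843 to 0.911). Insig1 therefore stood with the sterol genes, and Srebf1 and Srebf2 on the other side of 1.

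Over the 6 libraries, 33 of 34 members had all 4 libraries labelled as knockouts above both parental libraries, as did 24.2% of all tested genes. Srebf2 was the exception, and Srebf1 was all but level, at 184.9 CPM in Lingo2 KO and 184.8 CPM in unscratched parental cells. The highest library was Lingo3 KO for 30 of 34 members, and for 25.3% of all tested genes. The exceptions were Idi1 and Sc5d, highest in TROY KO, Tm7sf2, highest in the library labelled Lingo1 KO, and Ebp, highest in Lingo2 KO. The lowest library was the unscratched parental one for 25 members, 16 of 18 sterol and 7 of 12 fatty acid genes among them, and the scratched parental one for the other 9.

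Summed over its 18 genes, the sterol arm reached 2386 CPM in the library labelled Lingo1 KO, 2294 CPM in Lingo2 KO, 2762 CPM in Lingo3 KO and 2415 CPM in TROY KO, against 1545 CPM in scratched and 1357 CPM in unscratched parental cells. The 12 fatty acid genes summed to 5646 CPM in Lingo1 KO, 4997 CPM in Lingo2 KO, 6571 CPM in Lingo3 KO and 5909 CPM in TROY KO, against 3594 CPM in scratched and 3574 CPM in unscratched parental cells. Relative to scratched parental cells, the sterol sum was 1.54 in Lingo1 KO, 1.48 in Lingo2 KO, 1.79 in Lingo3 KO and 1.56 in TROY KO, and the fatty acid sum 1.57, 1.39, 1.83 and 1.64 in the same order. Scd2 alone made up much of the fatty acid sum. All 34 members together took 0.924% of the counts in genes in Lingo1 KO, 0.844% in Lingo2 KO, 1.07% in Lingo3 KO and 0.949% in TROY KO, against 0.645% in scratched and 0.613% in unscratched parental cells.

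**Figure D4:**
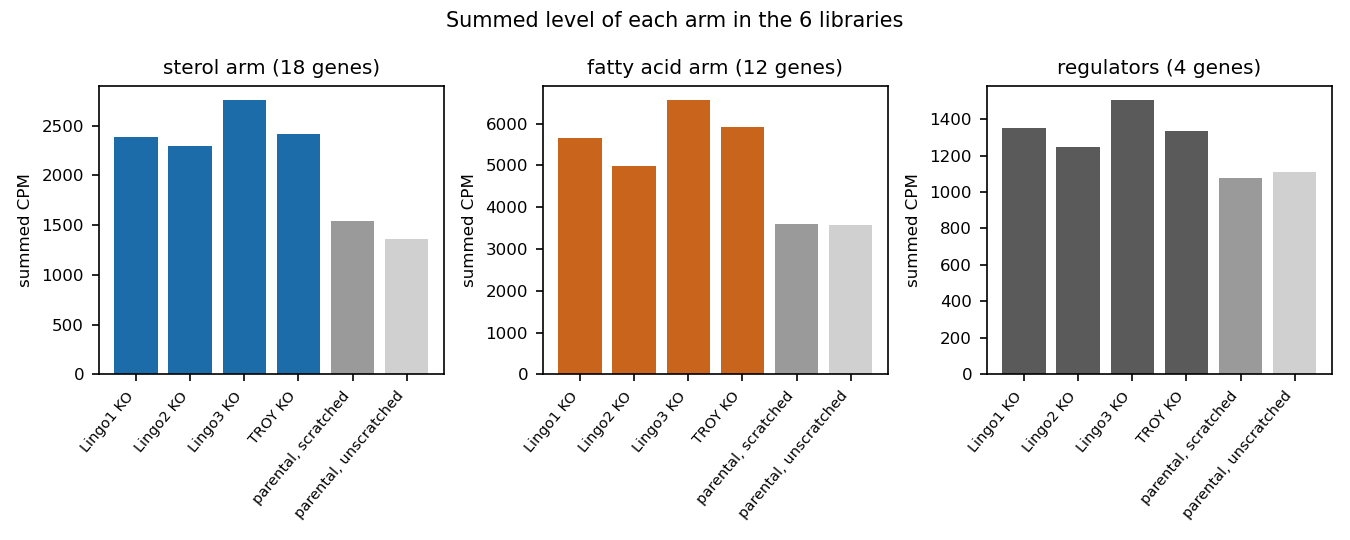
Summed CPM (vertical axis, starting at 0) of the sterol arm, the fatty acid arm and the regulators in each of the 6 libraries, 1 bar per library. The 4 libraries labelled as knockouts stand above both parental libraries in each panel, with Lingo3 KO highest (2762 CPM for the sterol arm, 6571 CPM for the fatty acid arm).

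Set per length, levels differed widely among members. By the mean over the 6 libraries of the authors' RPKM, Scd2 was the most abundant (376 RPKM), followed by Insig1 (139 RPKM), Fads2 (136 RPKM), Scd1 (123 RPKM), Fads1 (122 RPKM), Cyp51 (107 RPKM) and Srebf2 (102 RPKM). Insig1, Fads2, Scd1 and Fads1 changed places between libraries, so their order is not firm. The scarcest were Acss2 (5.26 RPKM), Fdps (5.11 RPKM), Tm7sf2 (4.92 RPKM) and Acacb (0.233 RPKM). Counts of some members are uncertain where exons are shared with other genes. Of the distinct 50-base stretches of annotated transcripts, 39.1% for Acat2, 30.4% for Acaca, 28.3% for Me1, 26.5% for Fdft1, 26.2% for Fdps and 25.3% for Idi1 also occur in transcripts of other genes. For Hmgcs1 the share was 11.6%, for Acss2 6.13%, for Scd1 4.56% and for Scd2 3.97%.

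Direct ratios between the libraries labelled as knockouts, which leave out the parental libraries, placed Lingo3 KO highest. Against the library labelled Lingo1 KO, Lingo3 KO had a median log2 fold of 0.22 in the sterol arm and 0.24 in the fatty acid arm, against Lingo2 KO 0.28 and 0.45, and against TROY KO 0.20 and 0.17. Between the other 3 libraries the medians were 0.04 and 0.14 for Lingo1 KO against Lingo2 KO, 0.01 and -0.05 for Lingo1 KO against TROY KO, and -0.04 and -0.20 for Lingo2 KO against TROY KO.

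Members past the size rule were found in 1 of these 6 pairs. In Lingo3 KO against TROY KO, Acss2 had a fold of 2.42 (2.18 to 2.68) and Acacb 2.68 (1.87 to 3.91), 2 of 34 members, where 2.61% of all tested genes passed in either direction. No member passed in Lingo3 KO against the library labelled Lingo1 KO (1.65% of all tested genes) or against Lingo2 KO (1.61%), in Lingo1 KO against Lingo2 KO (0.0166%), in Lingo1 KO against TROY KO (0.215%) or in Lingo2 KO against TROY KO (0.364%). Acss2 in Lingo3 KO was 1.90 (1.72 to 2.10) times its level in the library labelled Lingo1 KO and 1.85 (1.68 to 2.05) times that in Lingo2 KO. Hmgcs1 in Lingo3 KO was 1.24 (1.21 to 1.27) times its TROY KO level, Scd1 1.21 (1.19 to 1.23), Elovl6 1.21 (1.16 to 1.27), Mvd 1.34 (1.26 to 1.42) and Scd2 1.06 (1.05 to 1.07).

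Other genes of sterol handling had smaller medians than the sterol arm. For 12 further sterol genes, among them those of the SREBP-processing machinery and of sterol transport, the median log2 fold over the scratched parental library was 0.20 in the library labelled Lingo1 KO, 0.09 in Lingo2 KO, 0.21 in Lingo3 KO and 0.17 in TROY KO. None of the 12 passed the size rule in Lingo1 KO, Lingo2 KO or TROY KO.

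Of 24 further genes of fatty acid elongation, activation and triglyceride synthesis, 20 were tested, and Elovl3, Thrsp, Mlxipl and Scd3 were below 1 CPM. Those higher were 1 in the library labelled Lingo1 KO, 0 in Lingo2 KO, 3 in Lingo3 KO and 0 in TROY KO. Among all tested genes the shares higher were 1.95%, 2.12%, 4.63% and 1.06% in the same order. Lpin1, a phosphatidate phosphatase, had folds of 2.24 (1.84 to 2.72) in Lingo1 KO and 2.97 (2.48 to 3.58) in Lingo3 KO, beside 1.66 in Lingo2 KO and 1.91 in TROY KO. Dgat2, which makes triglyceride, had 3.07 (2.21 to 4.34) in Lingo3 KO, at 4.95 CPM against 1.61 CPM in scratched parental cells, and 1.03 in TROY KO. Slc25a1, the mitochondrial citrate carrier, had 2.33 (2.21 to 2.46) in Lingo3 KO, 1.80 in Lingo1 KO, 1.82 in Lingo2 KO and 1.40 in TROY KO. The medians of the list were 0.28 in Lingo1 KO, 0.25 in Lingo2 KO, 0.25 in Lingo3 KO and 0.14 in TROY KO.

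NADPH is consumed by both arms. The 5 listed genes of NADPH supply and the pentose phosphate pathway were G6pdx, Pgd, Idh1, Tkt and Taldo1. All 5 had folds above 1 in the 4 comparisons. Their median log2 fold was 0.54 in the library labelled Lingo1 KO, 0.60 in Lingo2 KO, 0.69 in Lingo3 KO and 0.46 in TROY KO. Only Pgd, phosphogluconate dehydrogenase of the pentose phosphate pathway, passed the rule, and in Lingo3 KO alone, where 4.63% of all tested genes were higher. Its fold there was 2.09 (2.03 to 2.15), at 488 CPM against 234 CPM in scratched parental cells. In scratched against unscratched parental cells the median of these genes was -0.02.

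Markers of other cell types moved between the same libraries. The 4 epithelial markers summed to 1485 CPM in the library labelled Lingo1 KO, 1392 CPM in Lingo2 KO, 1432 CPM in Lingo3 KO and 1449 CPM in TROY KO, against 915 CPM in scratched and 970 CPM in unscratched parental cells, a step of like size to the arms. Of the 7 alveolar type II markers tested, 3 were higher in Lingo1 KO, 3 in Lingo2 KO, 3 in Lingo3 KO and 1 in TROY KO. Among all tested genes the shares higher were 1.95%, 2.12%, 4.63% and 1.06% in the same order. Lpcat1 went the other way, at 164, 160, 140 and 167 CPM in the same order, against 239 CPM in scratched parental cells. The 10 listed summed to 654 to 821 CPM in the libraries labelled as knockouts and 634 to 679 CPM in the parental ones. Sftpb, a surfactant protein, had 164 CPM in Lingo1 KO, 144 CPM in Lingo2 KO, 164 CPM in Lingo3 KO and 87.0 CPM in TROY KO, against 35.6 CPM in scratched parental cells. Sftpc had 40.7 CPM in Lingo1 KO, 42.0 CPM in Lingo2 KO, 81.9 CPM in Lingo3 KO and 19.8 CPM in TROY KO, against 18.3 CPM in scratched parental cells. Their part in the values of the lipid genes was not tested.

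Fibroblast markers were 6, of which 4 were tested, with 2 higher in the library labelled Lingo1 KO, 2 in Lingo2 KO, 3 in Lingo3 KO and 2 in TROY KO. Among all tested genes the shares higher were 1.95%, 2.12%, 4.63% and 1.06% in the same order. The fibroblast sum, which is nearly all Dcn, was between 2745 and 3461 CPM in the libraries labelled as knockouts. In the parental ones it was between 2578 and 2824 CPM. Col1a1 had 398 CPM in Lingo3 KO and between 136 and 170 CPM in the other 3, against 44.8 CPM in scratched parental cells, and Pdgfrb had 348 counts in Lingo3 KO against 1 in scratched parental cells. Pdgfrb was among the tested genes through its 11.4 CPM in Lingo3 KO, with at most 1.88 CPM in any other library. The numbers of fibroblast markers higher therefore rest in part on that filter. Col3a1 had 62 counts in Lingo3 KO and at most 3 elsewhere, and Col1a2 at most 3 in any library. Their part in the values of the lipid genes was not tested. Adipocyte markers (Adipoq, Plin1, Lep and Cidec) had at most 2 counts each in any library. The blood markers Ptprc, Cd3e and Adgre1 had at most 3, and the 4 blood markers summed to at most 3.02 CPM.

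The authors' deposited table holds log2 ratios for the same 5 comparisons, and for the 34 members they differed from those computed here by between -0.0234 and 0.0171.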

How the data were processed

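Messenger RNA libraries (Illumina TruSeq kit, per the labels' protocols) of 6 samples were analysed. The authors deposited raw read counts per Ensembl gene, and a second deposited table with RPKM values and log2 ratios of them for the same libraries, in which 13559 genes have values. The unit RPKM was inferred from the values, since over 7444 genes they equalled counts times a gene factor and a library factor (SD 0.00072 log2). Trimmomatic 0.39, STAR, HTSeq, edgeR and build GRCm38 are named in the submitters' processing notes; no source used here gives their settings, the strandedness or the filter behind the second table, so antisense and overlapping genes cannot be told apart. Reads aligned to several places, which HTSeq listed separately, were between 28.7% and 31.3% of reads and stayed out of totals.

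Counts were scaled with TMM factors (edgeR 4.0.16, R 4.3.3). Symbols came from the identifiers (45143 of 46078 matched) and positions from GENCODE M21. A fold divides the scaled counts of 2 libraries, and its 95% interval was converted from the exact (Clopper-Pearson) interval for the first library's share of both counts. Intervals cover counting error only: without molecular identifiers, reads do not stand for independent molecules. Named members are the 34, with full values for Hmgcs1, Scd1, Elovl6, the regulators, every member past the size rule and the extremes of each arm; of other lists, every gene past the rule, except that some results are not reported here. The members and lists were chosen with earlier results of these data known. The procedure was tested on simulated data. Alternatives were DESeq2 1.42.0 size factors, total counts, other low-count filters, a looser rule, the unscratched control, the arms' mean and the authors' log2 ratios.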

Additional observations from a re-analysis of the deposited data

How the results depend on the processing

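No paired analysis was possible because each group has 1 library, and for the same reason no library could be left out of a group. DESeq2 size factors and a filter of at least 5 CPM, which drops Acacb alone, moved no count of members past the rule by over 1.5 times. Neither they nor the authors' log2 ratios moved an arm median by more than counting error. The authors' ratios have no intervals, so the rule was not applied to them, and Scd1 in Lingo1 KO had 0.99 there, short of 2-fold. Leaving out the filter on low counts could change nothing, because every member passes it. Scaling by total counts gave 1 member past the rule in the library labelled Lingo1 KO, in place of 3, and medians of 0.48 for the sterol arm in Lingo2 KO, 0.76 for the sterol and 0.80 for the fatty acid arm in Lingo3 KO, and 0.41 for the fatty acid arm in TROY KO. Under it Elovl6 (1.95) and Scd1 (1.90) in Lingo1 KO and Mvd and Scd2 (both 1.92) in Lingo3 KO no longer passed, and Srebf2 in Lingo2 KO changed sign (log2 -0.003). It moved the median of all tested genes by less than 0.1 in log2. A looser rule, a fold of 1.5 with a bound set lower to match, gave 18 members in Lingo1 KO, 12 in Lingo2 KO, 24 in Lingo3 KO and 15 in TROY KO, all higher, where 5.57%, 5.54%, 10.3% and 3.72% of all tested genes were higher by it. It gave 5 of 204 ratios of members over the 6 pairs of libraries labelled as knockouts, in place of 2, and 3.15% of those of all tested genes, and 0 members for the scratch (0.323% of all tested genes). With the unscratched parental library as control, members past the rule were 6 in Lingo1 KO, 4 in Lingo2 KO, 15 in Lingo3 KO and 8 in TROY KO, and sterol medians 0.76, 0.64, 1.01 and 0.73 in the same order. The fatty acid medians moved by no more than counting error with this control. In Lingo3 KO the sterol median was then above the fatty acid median, the reverse of the order with the scratched control. The mean in place of the median gave 0.56 for the fatty acid arm in Lingo2 KO, and 0.76 for the sterol and 0.97 for the fatty acid arm in Lingo3 KO. Depth limits Acacb, with 29 to 114 counts per library.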

Other observations

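Genes of fatty acid breakdown, the opposite direction of the pathway, were also measured. Of 9 genes of fatty acid oxidation, 8 were tested and 0 passed the size rule against the scratched parental library in any of the 4 libraries labelled as knockouts. The median log2 fold of the list was 0.21 in the library labelled Lingo1 KO, 0.20 in Lingo2 KO, 0.36 in Lingo3 KO and 0.06 in TROY KO. Cpt1a, which admits long-chain fatty acids to mitochondria, had 154 CPM in Lingo1 KO, 149 CPM in Lingo2 KO, 177 CPM in Lingo3 KO and 142 CPM in TROY KO, against 138 CPM in scratched and 147 CPM in unscratched parental cells. Cpt1a was named after its values were seen.

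Of 6 genes of oxysterol sensing and cholesterol efflux, 4 were tested and 0 passed the rule in these comparisons. Abca1, the exporter of cholesterol, had 5.45 CPM in the library labelled Lingo1 KO, 6.47 CPM in Lingo2 KO, 10.4 CPM in Lingo3 KO and 9.91 CPM in TROY KO, against 6.64 CPM in scratched and 6.60 CPM in unscratched parental cells. Abcg1 and Mylip were below 1 CPM.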
